A study of Mus musculus with 4 samples.

Results

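The Sox genes encode transcription factors that carry an SRY-related HMG box, and 10 of them were followed here across the cell types of the peripubertal mouse testis and between 2 genotypes. The 10 genes (Sox17, Sox18, Sox7, Sox9, Sox8, Sox4, Sox11, Sox3, Sox30 and Sox5) were taken by symbol from the 31053 genes counted in each library, and all 10 were found. The study dissociated the region of the testis that holds the rete testis (RT) and the adjacent seminiferous tubules from C57BL/6 mice at postnatal day 14 (P14) and profiled single cells with the 10x Genomics 3′ chemistry. The 2 control libraries carried the genotype SF1Cre per the labels, whereas the study's methods describe floxed littermates as controls. The 2 Sox17-cKO libraries carried SF1Cre:Sox17flox/flox, in which Cre is driven by Nr5a1 (also known as SF1), a gene of the gonadal somatic lineage, and removes the floxed Sox17 alleles. Each library pooled 3 pups, so the spread between the 2 libraries of a genotype is a spread between pools. The part of Sox17 that lies between the loxP sites was not given in the sources used here, and the 3′ chemistry counts the end of a transcript.

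SOX proteins bend DNA by inserting the HMG box into the minor groove of a short AT-rich core site, and their effect on a promoter or enhancer depends on the partner protein bound beside them. Members of a subgroup share the HMG box and often act redundantly in the same cell type. SoxF proteins (SOX7, SOX17 and SOX18) act in endothelial cells of blood and lymphatic vessels, and SOX17 also acts in endoderm. SoxE proteins (SOX8 and SOX9) direct Sertoli cell identity after SRY switches on Sox9 in the fetal testis. SoxC proteins (SOX4 and SOX11) are found in many progenitor cells, SOX3 of the SoxB1 subgroup acts in early spermatogonia, SOX30 of the SoxH subgroup is a regulator of late meiotic and postmeiotic genes, and SOX5 of the SoxD subgroup lacks a transactivation domain and is known from cartilage, where it acts beside SOX9.

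The genes lie on 9 chromosomes of GRCm38 (GENCODE vM21). Sox17 lies at chr1:4490931-4497354 and Sox18 at chr2:181669836-181671640, both on the minus strand, and Sox7 at chr14:63943673-63950732 on the plus strand. Sox9 lies at chr11:112782224-112787760 and Sox30 at chr11:45980310-46017994, both on the plus strand, and Sox8 at chr17:25565892-25570686 on the minus strand. Sox4 (chr13:28948919-28953713), Sox11 (chr12:27334264-27342574) and Sox3 (chrX:60891366-60893430) are genes with 1 exon on the minus strand. Sox5 at chr6:143828425-144781977, also on the minus strand, spans 953553 bases and has 14 annotated transcripts, so its counts cannot be assigned to an isoform. Promoter sequences of 5 of the 10 genes were matched by symbol in a RefSeq table (GRCm38.p6), and 3 are shown, for genes whose levels described below were highest late in the germ cell order (Sox30), marked Sertoli cells (Sox8) or were spread over most cell types (Sox4). Each is the run of 250 bases that ends at the base before the start annotated in RefSeq, which for Sox4 lies slightly inside the GENCODE gene, 5′ to 3′ on the gene's strand, with capitals marking a match to the SOX core letters ACAAT.
Sox30, chr11:45980060-45980309, plus strand: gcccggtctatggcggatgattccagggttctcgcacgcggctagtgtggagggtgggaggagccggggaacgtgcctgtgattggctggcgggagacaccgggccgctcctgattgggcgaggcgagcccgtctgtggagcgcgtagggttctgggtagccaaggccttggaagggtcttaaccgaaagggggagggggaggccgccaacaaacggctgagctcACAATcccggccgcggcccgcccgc
Sox8, chr17:25570687-25570936, minus strand: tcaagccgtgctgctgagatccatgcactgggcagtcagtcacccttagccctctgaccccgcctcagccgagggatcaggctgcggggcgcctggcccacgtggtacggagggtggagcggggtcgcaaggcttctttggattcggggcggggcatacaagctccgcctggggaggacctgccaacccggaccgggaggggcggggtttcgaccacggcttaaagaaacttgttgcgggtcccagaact
Sox4, chr13:28953700-28953949, minus strand: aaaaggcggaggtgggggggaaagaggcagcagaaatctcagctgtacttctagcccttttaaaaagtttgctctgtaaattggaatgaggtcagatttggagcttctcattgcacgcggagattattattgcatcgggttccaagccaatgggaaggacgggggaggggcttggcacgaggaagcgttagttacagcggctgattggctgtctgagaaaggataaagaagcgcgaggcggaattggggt
The Sox30 window held 1 match to ACAAT and 23 CpG dinucleotides, the Sox8 window held no match and 18 CpG, and the Sox4 window held no match and 11 CpG. ACAAT or its reverse complement ATTGT was present in 27.7% of the 32851 promoters of the same length in the table, and the longer ACAAAG or CTTTGT in 16.5%. The median promoter held 6 CpG. These letters are a description of the windows, and the RNA counts do not bear on binding to them.

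Cells with 1000 to 4500 detected genes were kept, 22567 of 46001 barcodes, with 33649565 to 42011650 unique molecular identifiers (UMIs) per library, and sorted into 13 classes named by marker genes and marked "-like". The Sox genes were used neither for clustering nor as markers. Any 2 libraries shared 20 to 43 barcodes, of which 7 to 9 were kept in both. RT-like cells (226 cells: 36 and 73 in the controls, 32 and 85 in Sox17-cKO) carried the RT marker list at 692 to 1122 CPM, where CPM is the UMI count of a gene, or of a list, scaled to 1000000 UMIs of that class in that library. That list stood at 236 to 339 CPM in differentiating spermatogonia-like and 250 to 367 CPM in preleptotene-like cells. Of its 9 genes, 5 were over 2-fold above the other clusters. Cldn7, also on it, gave 0, 0, 1 and 2 UMIs in RT-like cells, controls first, and 235, 82, 121 and 137 in the larger Sertoli-like class. RT-like cells held no UMI of Amh and 1 UMI of Fshr, both Sertoli cell genes, but the whole Sertoli list reached 2630 to 4221 CPM in them against 21437 to 22956 CPM in Sertoli-like cells. The endothelial-like class was the smallest compared, with 8 and 24 control and 14 and 26 Sox17-cKO cells. The markers of the Sertoli valve were not used to name clusters, so Sertoli cells of the valve, to which the paper assigned a cluster, were not analysed apart. Cells called pachytene-like also carried the leptotene and zygotene list at 7086 to 9084 CPM, close to the 8766 to 10193 CPM of the class named for it, and were told apart by the pachytene list (961 to 1574 against 251 to 348 CPM). The differentiating spermatogonia list stood at 678 to 802 CPM in the class named for it and at 734 to 1240 CPM in undifferentiated spermatogonia-like cells. These classes were told apart by the undifferentiated list (454 to 627 CPM in undifferentiated against 27.0 to 73.6 CPM in differentiating spermatogonia-like cells).

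The 10 genes fell into 3 kinds of pattern, shown in the map of levels by class. Sox18 and Sox7 were highest in endothelial-like cells, and Sox17 in endothelial-like and RT-like cells. These classes did not differ in Sox17 past the threshold (0.65 higher in endothelial-like cells on the log2 scale, SE 0.31, edgeR adjusted p = 0.124). This value takes both genotypes together. Mean levels in endothelial-like and RT-like cells were 426 and 334 CPM in the controls and 102 and 40.4 CPM in Sox17-cKO. Sox9, Sox8, Sox3 and Sox30 were high in 1 or a few epithelial or germ cell classes, and Sox4, Sox11 and Sox5 in several lineages. Of the UMIs in the 13 named classes, 65.1% of Sox17 came from RT-like and 26.0% from endothelial-like cells, 80.6% of Sox9 and 84.7% of Sox8 from Sertoli-like cells, 59.4% of Sox11 and 50.7% of Sox3 from differentiating spermatogonia-like cells, 43.7% of Sox30 from pachytene-like cells and 52.4% of Sox5 from fibroblast or stroma-like cells. These shares pool the libraries of both genotypes, and those of Sox17 therefore describe neither genotype alone. Between classes that stood next to each other in the order of a gene's mean level, 19 of 120 pairs passed the threshold (edgeR quasi-likelihood test, adjusted p below 0.05), whereas over all genes 54.9% of tests of the same class pairs did. Such neighbours are close in level by the way they were chosen. A step given below as passing was judged against the spread left once library is a block, so the ranges of libraries may still overlap.

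**Figure D1:**
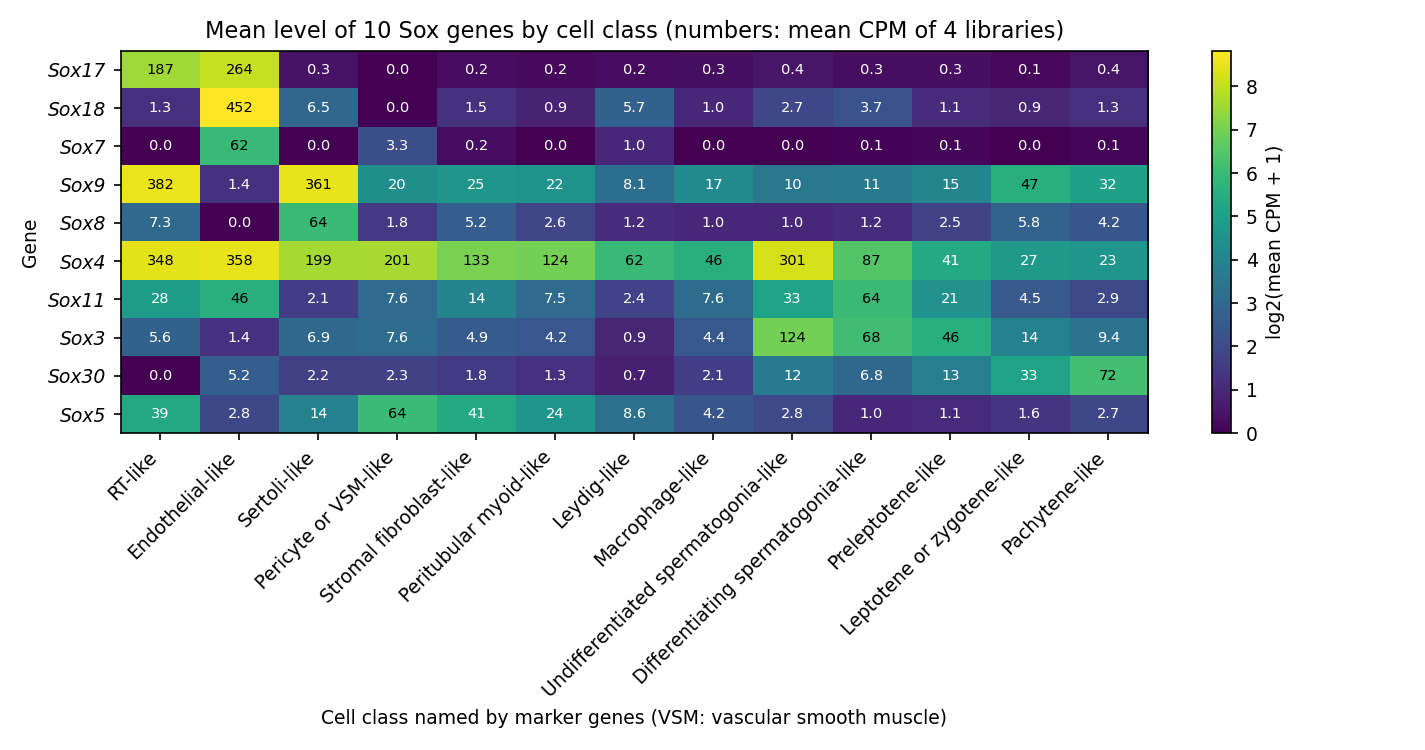
Mean level of each of the 10 Sox genes (rows) in each of 13 cell classes named by marker genes (columns), as numbers (mean CPM of 4 libraries) and as colour on the scale log2(mean CPM + 1). Rows are compared across classes only. Sox17 is high in the RT-like and endothelial-like columns, Sox18 and Sox7 in the endothelial-like column, and Sox3 and Sox30 are high at opposite ends of the germ cell columns.

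Sox17, the targeted gene, was lower in RT-like cells of both Sox17-cKO libraries. Its level was 356 and 312 CPM in the controls (94 and 180 UMIs) and 46.0 and 34.7 CPM in Sox17-cKO (11 and 23 UMIs). The groups did not overlap, and the labels of all 4 libraries therefore went with the level of the targeted gene. The difference was −3.13 on the log2 scale (SE 0.34, edgeR adjusted p = 0.0127 over 6778 genes, n = 2 and 2 libraries), and it was the 1 call among the 58 tests that could be made of a Sox gene by genotype in a class. In RT-like cells 9 genes were called in all, 0.133% of those tested, and in the other 12 classes none was (0% of 110486 edgeR tests, with 761 at an unadjusted p below 0.05). The 761 are a smaller share than 0.05, the share that evenly spread p-values would give. The test was thus conservative in these classes, and the lack of calls does not show a lack of change. The Sox17 UMIs left in Sox17-cKO RT-like cells gave a mean of 40.4 CPM, whereas no class other than the RT-like and endothelial-like ones had a mean above 0.433 CPM.

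The fall was seen both in how many RT-like cells held Sox17 UMIs and in how many UMIs such a cell held. A Sox17 UMI was found in 26 of 36 and 39 of 73 control cells (72.2% and 53.4%) and in 9 of 32 and 20 of 85 Sox17-cKO cells (28.1% and 23.5%). With each cell thinned to 2000 UMIs the shares were 40.0% (95% exact interval 23.9 to 57.9) and 31.0% (20.5 to 43.1) in the controls and 3.45% (0.0873 to 17.8) and 8.43% (3.46 to 16.6) in Sox17-cKO, where the intervals cover counting error only. Sertoli-like cells held a Sox17 UMI in 0.0688 to 0.406% of cells before thinning. Their median was 3217 to 5554 UMIs per cell, against 6918 to 7889 in RT-like cells. Germ-like cells, the planned background, held one in 0 to 0.782% at 6620 to 8976 UMIs. Whether the Sox17 UMIs of Sertoli-like or germ-like cells are free RNA was not tested. The mean share fell by 29.6 percentage points, and the exact permutation p of 0.333 (two-sided) is the smallest that 2 against 2 libraries can give. Cells with 10 or more Sox17 UMIs numbered 3 and 4 in the controls, up to 35 UMIs in a cell, and 0 and 0 in Sox17-cKO, where no RT-like cell held more than 3. Of the cells with a Sox17 UMI, 18 of 26 and 25 of 39 in the controls and 9 of 9 and 19 of 20 in Sox17-cKO also held Sox9, and 21 of 26, 35 of 39, 7 of 9 and 18 of 20 held the RT marker Pax8.

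**Figure D2:**
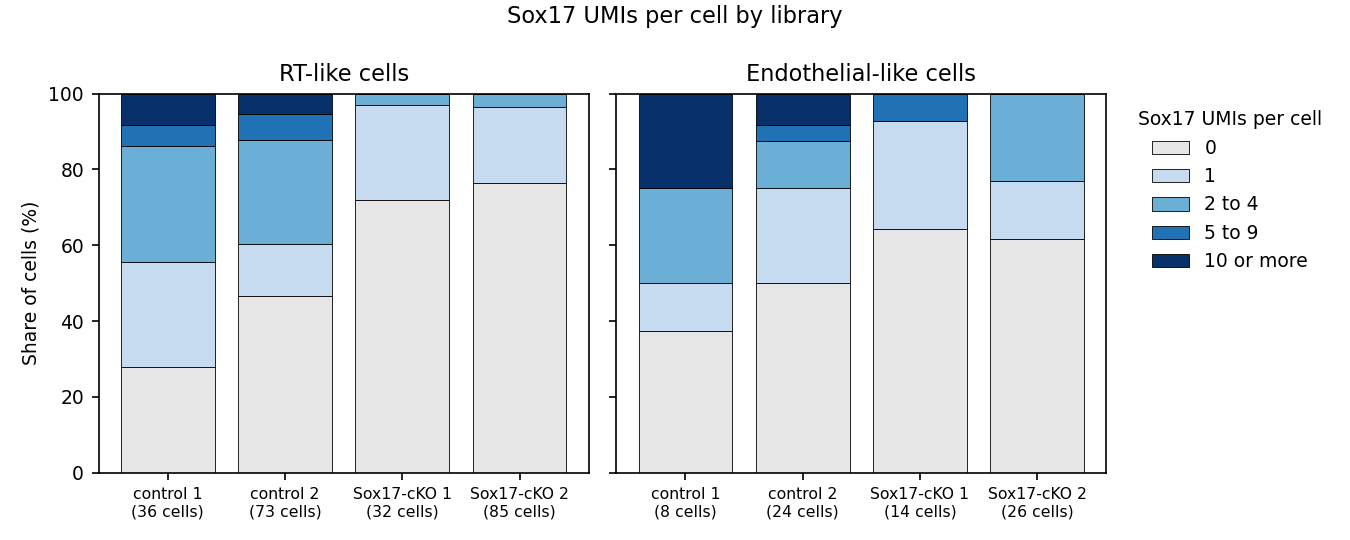
Share of RT-like and endothelial-like cells (percent, bars from 0) by the number of Sox17 UMIs in the cell, in each of the 4 libraries. Cells with 10 or more UMIs occur in both control libraries of both classes and in neither Sox17-cKO library.

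In endothelial-like cells Sox17 was also lower in both Sox17-cKO libraries, without passing the threshold. The level was 508 and 344 CPM in the controls (33 and 62 UMIs) and 102 and 101 CPM in Sox17-cKO (10 and 18 UMIs). The groups did not overlap, with a log2 difference of −2.03 (SE 0.43, unadjusted p = 0.000485, edgeR adjusted p = 0.476 over 2736 genes). Of the control UMIs, 24 of 33 and 43 of 62 came from 2 cells in each library. The difference passed without control replicate 2 (adjusted p = 0.0173), where 1 control library of 8 cells is left and is assumed to vary like the others. It also passed without a count filter (edgeR adjusted p = 0.0484) and with the replicate number as a block (−1.99, edgeR adjusted p = 0.0438). Both libraries of a number share a Cell Ranger version. The share of endothelial-like cells with a Sox17 UMI was 62.5% and 50.0% in the controls and 35.7% and 38.5% in Sox17-cKO before thinning, and 50.0%, 16.7%, 15.4% and 26.9% with cells thinned to 2000 UMIs, where the groups overlapped. Thinned to 3000 UMIs, which left out 7 of the 40 Sox17-cKO cells, the shares were 50.0% and 29.2% in the controls and 10.0% and 17.4% in Sox17-cKO and did not overlap (−25.9 against −12.2 percentage points at 2000 UMIs). Endothelial-like cells with 3 or more UMIs over the lymphatic markers Prox1, Lyve1, Mmrn1 and Ccl21a numbered 1 and 6 in the controls and 5 and 5 in Sox17-cKO and held, in the same order, 0, 1, 0 and 0 Sox17 UMIs, against 33, 61, 10 and 18 in the other cells. In those other cells the connexins Gja4 and Gja5, both known from arteries, gave 42, 32, 3 and 8 and 11, 6, 1 and 0 UMIs. In the cells with lymphatic markers Gja4 went the other way, with 0 and 10 UMIs in the controls and 14 and 21 in Sox17-cKO, and Gja5 had none. With the cells with lymphatic markers left out, Sox17 stayed lower in Sox17-cKO endothelial-like cells and was not called. The part of other kinds of vessel sampled in the Sox17 difference was not tested. The change in RT-like cells minus that in endothelial-like cells was −1.13 on the log2 scale (SE 0.52, unadjusted p = 0.0453), which did not pass over 5391 genes (edgeR adjusted p = 1.0). This fit had no library block, so both classes of a library were treated as independent.

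**Figure D3:**
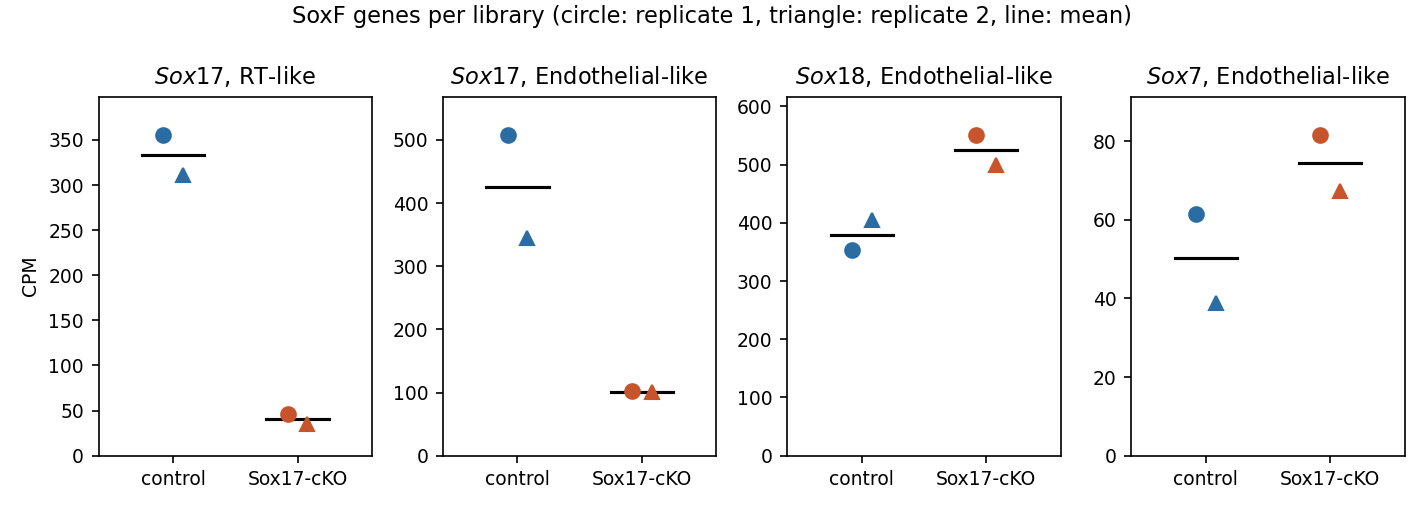
Level (CPM, axes from 0) of Sox17 in RT-like cells and of Sox17, Sox18 and Sox7 in endothelial-like cells, in each control and Sox17-cKO library (circle for replicate 1, triangle for replicate 2), with the mean of each genotype as a line. Sox17 is lower in both Sox17-cKO libraries in both classes, and Sox18, which did not pass, and Sox7, which was filtered from the test, lie higher in both.

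Sox18 and Sox7, the other SoxF genes, were endothelial and hardly present in the RT. Sox18, which acts in blood and lymphatic vessel development, reached 354 and 405 CPM in control and 551 and 499 CPM in Sox17-cKO endothelial-like cells, against 3 UMIs in all 226 RT-like cells. It was 8.16 higher in endothelial-like than in RT-like cells on the log2 scale (SE 0.53, edgeR adjusted p = 7.28e-17), a contrast in which 4 of the 10 Sox genes and 25.8% of all genes were called. Both Sox17-cKO libraries lay above both controls for Sox18 in endothelial-like cells, but the difference of 0.45 (SE 0.36, edgeR adjusted p = 1.0) did not pass, and a Sox18 UMI was held by 75.0% and 83.3% of control and 92.9% and 80.8% of Sox17-cKO cells, which overlapped. With cells thinned to 2000 UMIs these shares were 37.5% and 62.5% in the controls and 92.3% and 65.4% in Sox17-cKO, without overlap. The difference of 28.8 percentage points had the smallest exact permutation p that 2 against 2 libraries can give (0.333, two-sided). Sox17 and Sox18 were read in the same cell in 5 of 8, 10 of 24, 4 of 14 and 9 of 26 endothelial-like cells. Sox18 was also spread thinly elsewhere, at 5.88 and 7.73 CPM in control and 2.67 and 9.70 CPM in Sox17-cKO Sertoli-like cells, in which the whole list of 9 endothelial markers stood at 7.75 to 14.8 CPM, while in endothelial-like cells that list reached 6774 to 7800 CPM. The 226 UMIs in Sertoli-like cells were 31.9% of the Sox18 UMIs in named classes, and 1.30 to 5.16% of those cells held one against 0.952 to 2.58% of germ-like cells.

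Sox7, which acts in endothelial specification beside the other SoxF genes, was the rarest of the 10, with 51 UMIs in all kept cells. Its level in endothelial-like cells was 61.5 and 38.8 CPM in the controls and 81.6 and 67.3 CPM in Sox17-cKO, from 4 to 12 UMIs per library. Both Sox17-cKO libraries lay above both controls, at counts so low that Sox7 was filtered from the genotype test. No Sox7 UMI was found in RT-like or Sertoli-like cells, so that with the limit of 3 UMIs over all libraries that a count of 0 allows, its level in endothelial-like cells was at least 34.6-fold higher than in RT-like and at least 702-fold higher than in Sertoli-like cells. The next class in its order, pericyte or vascular smooth muscle-like cells with 5 UMIs, was 4.25 lower than the endothelial-like class on the log2 scale (SE 0.64). This step counts among the pairs past the threshold. Sox7 entered that comparison through its level in endothelial-like cells, and the pair was taken from the order of the same means. The pass therefore adds nothing to the levels.

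Vascular genes linked to SoxF factors were mostly higher in endothelial-like than in RT-like cells, and some of them were also used as class markers. Of 15 such genes, 14 were higher and none lower in endothelial-like than in RT-like cells, with a median log2 difference of 7.87 against −0.15 over all genes, of which 25.8% were called in either direction. Endothelial markers made up 4 of the 15. The claudin gene Cldn5 (11.3, SE 0.43) and VE-cadherin, Cdh5 (8.95, SE 0.40), are among those markers, whereas the VEGF receptor Flt1 (9.96, SE 0.59) and the transcription factor Mef2c (6.65, SE 0.51) are not. Between RT-like and Sertoli-like cells 3 of the 15 were higher and 2 lower, against 48.4% called over all genes: the VEGF receptor Kdr (6.86, SE 0.22) and the ephrin Efnb2 (3.64, SE 0.25) were higher in RT-like cells, and Mef2c was lower (−4.73, SE 0.52). By genotype in endothelial-like cells, 12 of the 15 could be tested and none was called by edgeR, with Cldn5 (−1.05, SE 0.34, unadjusted p = 0.00958) and Efnb2 (−1.11, SE 0.44, unadjusted p = 0.0261) below an unadjusted 0.05. Over all genes 92 of the 2736 tested in this class were below it. The endothelial list stood at 305 to 533 CPM in RT-like cells, mostly from Kdr (130, 270, 89 and 185 UMIs) and Egfl7 (6, 21, 2 and 14 UMIs). The other 7 markers gave 0 to 3 UMIs per library there.

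Sox9, the SoxE gene that keeps Sertoli cells in their identity, was high in both RT-like and Sertoli-like cells, whereas Sox8 was high in Sertoli-like cells alone. In RT-like cells Sox9 was 321 and 344 CPM in the controls and 322 and 539 CPM in Sox17-cKO, and in Sertoli-like cells 432 and 306 CPM and 295 and 410 CPM. The ranges of both classes overlapped, with a difference of −0.12 on the log2 scale for RT-like over Sertoli-like (SE 0.28, edgeR adjusted p = 0.752). The sign of this fitted value, which is scaled by TMM, is opposite to that of the CPM, where 3 of 4 libraries had the RT-like class above the Sertoli-like one (means of 382 and 361 CPM), so no direction is read from it. Sox8, which acts redundantly with Sox9 in Sertoli cells, was 55.6 and 65.1 CPM in control and 51.1 and 84.7 CPM in Sox17-cKO Sertoli-like cells, but 7.56, 5.19, 4.18 and 12.1 CPM in RT-like cells, from 14 UMIs in all. Every library was lower in RT-like cells, by −3.25 on the log2 scale (SE 0.40, edgeR adjusted p = 2.74e-09). In this contrast 7 of the 10 genes and 48.4% of all genes were called. By genotype neither gene was called in the comparison of all 4 libraries without a block: Sox9 differed by 0.34 in RT-like cells (SE 0.32, edgeR adjusted p = 0.997) and by −0.19 in Sertoli-like cells (SE 0.31, edgeR adjusted p = 1.0), and Sox8 by 0.03 in Sertoli-like cells (SE 0.32, edgeR adjusted p = 1.0). The share of RT-like cells with a Sox9 UMI, 72.2% and 69.9% in the controls and 71.9% and 82.4% in Sox17-cKO, also overlapped, as did the shares with cells thinned to 2000 UMIs (42.9%, 43.7%, 41.4% and 55.4%). Thinned to 3000 UMIs the Sox17-cKO libraries (59.3% and 72.2%) lay above the controls (48.5% and 53.8%), by 14.6 percentage points (exact permutation p = 0.333, two-sided, the smallest possible).

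The Sertoli-like class was built of 3 clusters, in which mean Sox9 levels were 436, 217 and 240 CPM and mean Sox8 levels 74.5, 42.8 and 48.5 CPM. Both SoxE genes were thus highest in the same cluster, whose leading genes were Qpct, Vsig1 and Inha. That cluster was also the deepest, with a median of 8586 UMIs per cell against 2746 and 2716. The median mitochondrial share was 12.4% in it and 8.05% and 30.3% in the other two. Outside the RT-like and Sertoli-like classes Sox9 fell by 3.06 on the log2 scale to the next class, leptotene or zygotene-like cells (SE 0.31, edgeR adjusted p = 1.22e-12), and endothelial-like cells held 1 Sox9 UMI. In leptotene or zygotene-like cells its level was 112 and 16.6 CPM in the controls and 42.6 and 15.9 CPM in Sox17-cKO. With the replicate number as a block this Sox9 difference was called (−1.12, edgeR adjusted p = 0.00280). In preleptotene-like cells the Sox9 difference was 0.43 with all 4 libraries, where the groups overlapped and it was not called. It was 2.61 when control replicate 1 was left out, which leaves 1 control library. The list of 11 Sertoli markers stood in leptotene or zygotene-like cells at 5063, 855, 2949 and 738 CPM, with the libraries in the same order. Per 1000 CPM of that list Sox9 was 8.35 to 37.8 CPM over all germ cell classes, 13.4 to 18.8 in Sertoli-like cells and 76.2 to 149 in RT-like cells. The part of Sertoli cell RNA in the Sox9 and Sox8 counts of germ-like cells was not tested.

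Of 14 genes of the SoxE pathway in Sertoli cells, 4 were higher and 6 lower in RT-like than in Sertoli-like cells, with a median log2 difference of −0.27 against −0.12 over all genes, of which 48.4% were called. The growth factor Fgf9 (7.22, SE 0.67) and its receptor Fgfr2 (8.17, SE 0.25), which keep up Sox9 in the fetal testis, and the prostaglandin D synthase Ptgds (4.14, SE 0.29), a target of SOX9, were higher. The inhibin subunit Inhbb (−2.77, SE 0.33) was lower, and Amh, which SOX9 and SOX8 switch on, was at 0 UMIs in RT-like cells. Class markers made up 2 of the 14 genes, Amh for Sertoli cells and Etv5 for undifferentiated spermatogonia. The direction of Amh is therefore not independent of how the classes were named. In leptotene or zygotene-like over preleptotene-like cells 8 of these 14 genes were higher and 1 lower, against 45.7% called over all genes. The part of the Sertoli list in these calls was not tested. Of 9 cartilage genes known as targets of SOX9 with SOX5, 4 could be tested and 1, the collagen Col11a1, was higher in RT-like cells (5.27, SE 0.55). None was called lower, but the median log2 difference of the 4 was −0.98 against −0.12 over all genes. In the genotype test Col11a1 was 2.52 higher in Sox17-cKO RT-like cells (SE 0.51, unadjusted p = 0.000711) and was not called (edgeR adjusted p = 0.146).

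Sox4, a SoxC gene of progenitor cells, was read in every class and was highest in 3 classes of different lineages. Endothelial-like cells held it at 369 and 289 CPM in the controls and 398 and 376 CPM in Sox17-cKO, RT-like cells at 280, 499, 259 and 353 CPM and undifferentiated spermatogonia-like cells at 264, 326, 278 and 339 CPM. The ranges of these classes overlapped, and neither neighbouring pair differed (log2 differences of −0.01, SE 0.26, and 0.05, SE 0.22). The next step, to pericyte or vascular smooth muscle-like cells with a mean of 201 ± 65.8 CPM (SD, n = 4 libraries), was the first of 3 that passed (0.53, SE 0.22, edgeR adjusted p = 0.0369), followed by Sertoli-like over stroma-like cells (0.50, SE 0.20, adjusted p = 0.0218) and myoid-like over differentiating spermatogonia-like cells (0.73, SE 0.20, adjusted p = 0.00116). Sox4 was 0.59 higher in RT-like than in Sertoli-like cells (SE 0.21, edgeR adjusted p = 0.0179), but this call was lost in 6 of 14 alternative settings, with a difference of 0.17 and an adjusted p of 0.512 when control replicate 2 was left out. A gene on the opposite strand, Gm26735, overlaps Sox4 and had 2769 UMIs against 20469 for Sox4. By genotype Sox4 was tested in all 13 classes and called in none, with log2 differences from −0.57 to 0.26.

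Among germ-like cells Sox4 fell over the first 2 steps while Sox11, the other SoxC gene, peaked in differentiating spermatogonia. Sox4 fell by 1.83 on the log2 scale from undifferentiated to differentiating spermatogonia-like cells (SE 0.21, edgeR adjusted p = 3.17e-10) and fell by 1.18 on to preleptotene-like cells (SE 0.22, adjusted p = 1.71e-05). Sox11 was 62.1 and 76.4 CPM in control and 62.4 and 56.8 CPM in Sox17-cKO differentiating spermatogonia-like cells, above each library's own level in undifferentiated spermatogonia-like cells (25.4, 39.9, 25.1 and 41.3 CPM). It was 1.02 higher on the log2 scale (SE 0.24, edgeR adjusted p = 0.000425) and then fell by 1.72 to preleptotene-like cells (SE 0.23, adjusted p = 3.35e-08) and by 1.95 to leptotene or zygotene-like cells (SE 0.38, adjusted p = 3.23e-05). With the control libraries only, the rise (1.19, edgeR adjusted p = 0.0653) and the last fall (−1.52, adjusted p = 0.0774) kept their direction but were not called. Outside the germ line the highest mean of Sox11 was in endothelial-like cells (46.4 ± 28.6 CPM, SD, n = 4 libraries), from 29 UMIs, and its step below differentiating spermatogonia-like cells did not pass (edgeR adjusted p = 0.448). Sox11 was at 28.1 ± 11.7 CPM in RT-like and 2.13 ± 1.66 CPM in Sertoli-like cells (SD, n = 4 libraries), a difference of 3.36 (SE 0.43, edgeR adjusted p = 3.73e-09) that no alternative setting removed. In RT-like cells it was 37.8 and 36.4 CPM in the controls and 12.5 and 25.7 CPM in Sox17-cKO, from 51 UMIs, and the difference of −0.83 (SE 0.48, edgeR adjusted p = 0.994) did not pass although the groups did not overlap.

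Sox3 and Sox30 marked opposite ends of the germ cell order, as the plot of levels by germ cell stage shows. Sox3, which is needed for early spermatogonia to go on, was 109 and 113 CPM in control and 124 and 151 CPM in Sox17-cKO undifferentiated spermatogonia-like cells. It fell at each of the next 3 steps, by 0.92 to differentiating spermatogonia-like cells (SE 0.17, edgeR adjusted p = 1.12e-05), by 0.65 to preleptotene-like cells (SE 0.17, adjusted p = 0.00175) and by 1.64 to leptotene or zygotene-like cells (SE 0.23, adjusted p = 1.23e-07). Every library fell at each of these 3 steps, to a mean of 13.9 CPM, and the step to pachytene-like cells (9.39 CPM) did not pass (−0.55, SE 0.29, adjusted p = 0.147). When cells with over 4500 genes were kept, the first and the third of the falls were smaller and not called (−0.43 and −0.42, edgeR adjusted p = 0.137 and 0.189). With the control libraries only the second was not called (−0.54, adjusted p = 0.227). The 2 clusters within the differentiating class differed in the same sense, with 93.6 CPM in the Crabp1-led cluster, which had Dnmt3b among its leading genes, and 54.5 CPM in the Dmrtb1-led one. In somatic classes Sox3 stood between 0.934 CPM in Leydig-like and 7.65 CPM in pericyte or vascular smooth muscle-like cells.

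Sox30 ran the other way from preleptotene on. Its level in pachytene-like cells was 82.7 and 72.6 CPM in the controls and 57.3 and 75.1 CPM in Sox17-cKO, in leptotene or zygotene-like cells 30.9, 33.9, 33.2 and 33.6 CPM, and in preleptotene-like cells 14.9, 9.05, 11.8 and 15.9 CPM. The 3 stages did not overlap. It rose by 1.57 from preleptotene to leptotene or zygotene (SE 0.22, edgeR adjusted p = 1.46e-07) and by 1.02 on to pachytene (SE 0.19, adjusted p = 2.08e-05), the second of which was 0.20 (adjusted p = 0.450) when the Sox17-cKO libraries were entered first into the integration. Among germ-like cells the level was lowest in differentiating spermatogonia-like cells (6.82 ± 0.74 CPM, SD, n = 4 libraries), 0.84 below undifferentiated spermatogonia-like cells (SE 0.26, adjusted p = 0.00585) and 0.82 below preleptotene-like cells (SE 0.23, adjusted p = 0.00277), a rise that became −0.057 when cells with over 4500 genes were kept and all cells were named again. The step down to differentiating cells was not called in 3 of 14 alternative settings. It was −0.48 when those cells were kept (edgeR adjusted p = 0.080), −0.65 without control replicate 1 (0.127) and −1.0 with the control libraries only (0.0912). With the control libraries only the step up from there was also not called (0.83, adjusted p = 0.163). RT-like cells held no Sox30 UMI, so that pachytene-like cells stood at least 42-fold higher. Neither gene was called by genotype in any germ cell class, with Sox3 at 0.23 (SE 0.28) in undifferentiated spermatogonia-like and Sox30 at −0.27 (SE 0.29) in pachytene-like cells (edgeR adjusted p = 1.0 for both).

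**Figure D4:**
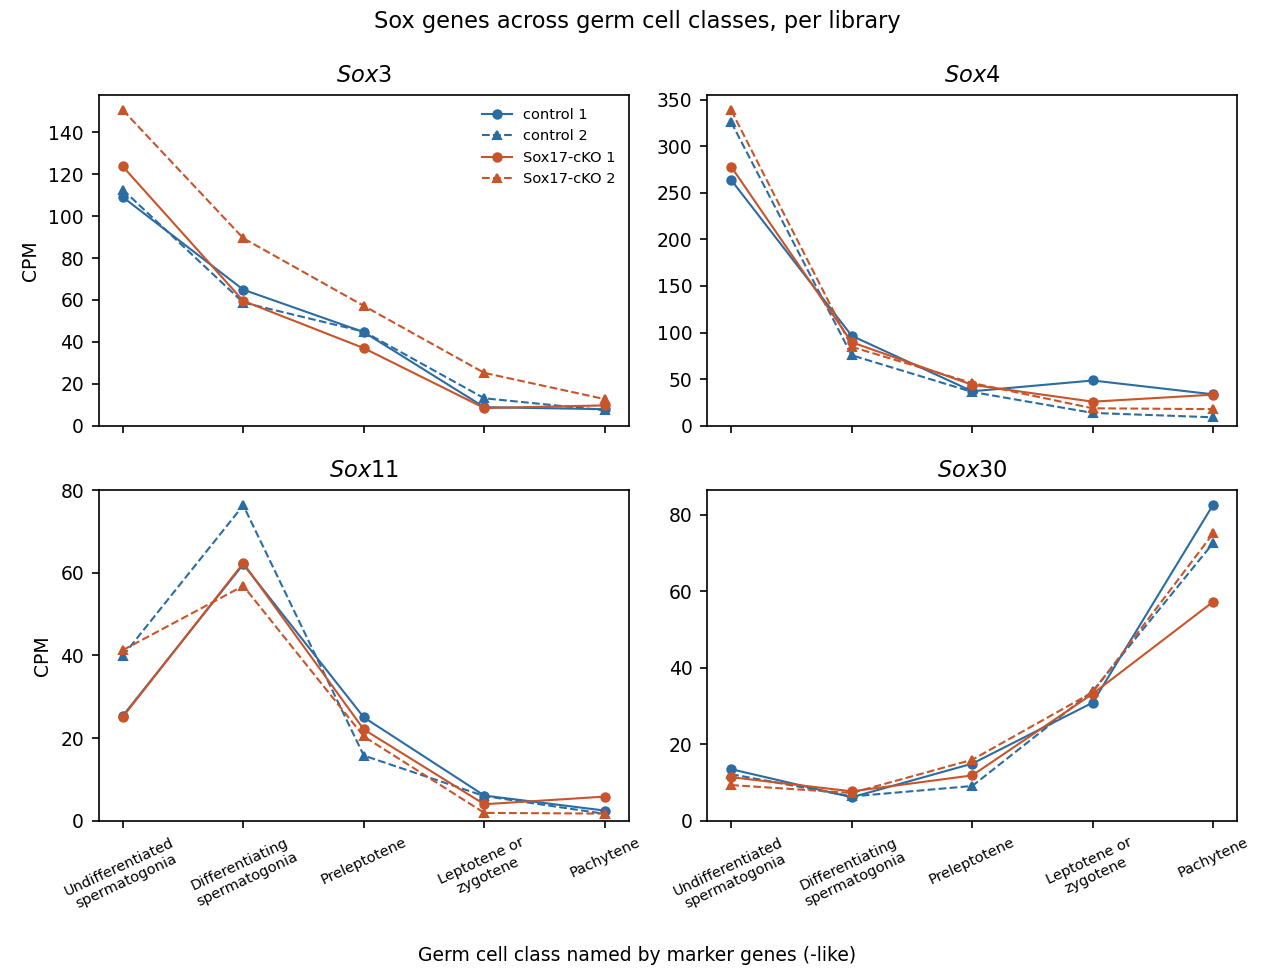
Level (CPM) of Sox3, Sox30, Sox4 and Sox11 in each library across the 5 germ cell classes, ordered from undifferentiated spermatogonia-like to pachytene-like cells. Each point is a library and each line joins the points of 1 library. The means of Sox3 and Sox4 fall along the order, Sox11 peaks in differentiating spermatogonia-like cells and Sox30 rises from the differentiating to the pachytene class.

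Between 1 and 5 of the 10 Sox genes were called at each germ cell step. From undifferentiated to differentiating spermatogonia-like cells 5 of the 10 were called (50.1% of all genes), from there to preleptotene-like cells 5 of 10 (47.3%), from preleptotene to leptotene or zygotene-like cells 5 of 10 (45.7%) and from there to pachytene-like cells 1 of 10 (36%). These counts moved with the settings: with the control libraries only the first 3 were 2, 2 and 3, and without the upper limit on genes the last was 4. At the third step the Sox9 rise of 1.83 (SE 0.37, edgeR adjusted p = 6.67e-05) and the Sox8 rise of 1.53 (SE 0.49, adjusted p = 0.00899) went with the Sertoli list, and both were near 0 (−0.059 and 0.16) when cells with over 4500 genes were kept. Most genes of early spermatogonia listed with Sox3 fell at the same steps. Of 9, 7 were lower and 1 higher in differentiating than in undifferentiated spermatogonia-like cells (median −2.04 against 0.04 over all genes): the RNA-binding proteins Lin28a (−2.77, SE 0.21) and Nanos3 (−3.92, SE 0.30) and the uridine phosphorylase Upp1 (−3.97, SE 0.30) fell, while the receptor Kit rose (3.27, SE 0.27). Kit, Sohlh1 and Sohlh2 were 3 of the markers that named the differentiating class, so their direction is not independent of it. The sum of that marker list did not separate the differentiating from the undifferentiated class. A further step on, 7 of the 9 fell and none rose (median −1.44 against −0.17), among them Sall4 (−2.44, SE 0.22) and Sohlh1 (−1.41, SE 0.20), transcription factors of spermatogonia.

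Of 8 meiotic genes listed with Sox30, 5 rose and 1 fell from differentiating spermatogonia-like to preleptotene-like cells, 4 rose and none fell at the next step, and 3 rose and 4 fell on to pachytene-like cells, where 47.3%, 45.7% and 36% of all genes were called. The transcription factor Mybl1 rose at the first 2 of these steps (2.77, SE 0.19, and 2.10, SE 0.17) and Crem, which acts in spermatids, at the same 2 (1.08, SE 0.22, and 1.37, SE 0.22). On to pachytene-like cells the testis bromodomain gene Brdt (1.81, SE 0.18), Rfx2 (1.37, SE 0.27) and the pachytene marker Tbpl1 (1.39, SE 0.13) rose with Sox30 and Taf7l fell (−1.28, SE 0.30). The median over the 8 genes was 0.76, 0.56 and −0.45 at the 3 steps, against −0.17, 0.13 and 0.02 over all genes.

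Sox5, a SoxD gene, was mesenchymal and was also read in the RT. Pericyte or vascular smooth muscle-like cells held it at 55.5 and 73.6 CPM in the controls and 54.8 and 71.0 CPM in Sox17-cKO, and fibroblast or stroma-like cells at 44.5, 39.0, 43.7 and 37.9 CPM. These classes did not overlap, but the difference did not pass (0.57, SE 0.26, edgeR adjusted p = 0.116), and neither did the next steps to RT-like and myoid-like cells. The step from myoid-like to Sertoli-like cells passed (0.97, SE 0.23, adjusted p = 0.000310). RT-like cells were 1.38 above Sertoli-like cells (SE 0.32, edgeR adjusted p = 0.000286), and endothelial-like over RT-like cells differed by −3.43 (SE 0.92, adjusted p = 0.00340). The first of these was 0.67 (adjusted p = 0.137) without control replicate 2. Both differences take the genotypes together. Mean levels in RT-like and Sertoli-like cells were 52.0 and 9.02 CPM in the controls and 26.3 and 18.5 CPM in Sox17-cKO, so the first describes neither genotype alone.

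By genotype Sox5 pointed in different directions in RT-like and Sertoli-like cells, without a call in either class. In RT-like cells it was 41.6 and 62.3 CPM in the controls and 20.9 and 31.7 CPM in Sox17-cKO, from 73 UMIs, and in Sertoli-like cells 8.17 and 9.87 CPM in the controls and 20.1 and 16.9 CPM in Sox17-cKO, from 481 UMIs. The groups overlapped in neither class. With 2 against 2 libraries a lack of overlap carries little weight, since the smallest exact permutation p is 0.333 (two-sided). The difference was −0.98 in RT-like cells (SE 0.43, unadjusted p = 0.0471, edgeR adjusted p = 0.832) and 0.90 in Sertoli-like cells (SE 0.31, unadjusted p = 0.0229, edgeR adjusted p = 1.0), and neither passed. Within a replicate number the ratio of Sox17-cKO to control was 0.502 and 0.509 in RT-like cells and 2.45 and 1.72 in Sertoli-like cells. In the other mesenchymal classes Sox5 differed little, by −0.10 in stroma-like (SE 0.22), −0.15 in pericyte-like (SE 0.38) and −0.09 in myoid-like cells (SE 0.30). Of the 58 tests of a Sox gene by genotype, 5 had an unadjusted p below 0.05, namely Sox17 and Sox5 in RT-like cells, Sox17 in endothelial-like cells, Sox5 in Sertoli-like cells and Sox3 in myoid-like cells (1.33, SE 0.53, unadjusted p = 0.0345), as the plot of all genotype differences shows. Over all genes, 399 of 6778 edgeR tests in RT-like and 92 of 2736 in endothelial-like cells had an unadjusted p below 0.05. In Sertoli-like cells 93 of 12445 did and in myoid-like cells 84 of 11419. Both of these shares lie below 0.05, so the test was conservative there and they are not a rate of false findings.

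**Figure D5:**
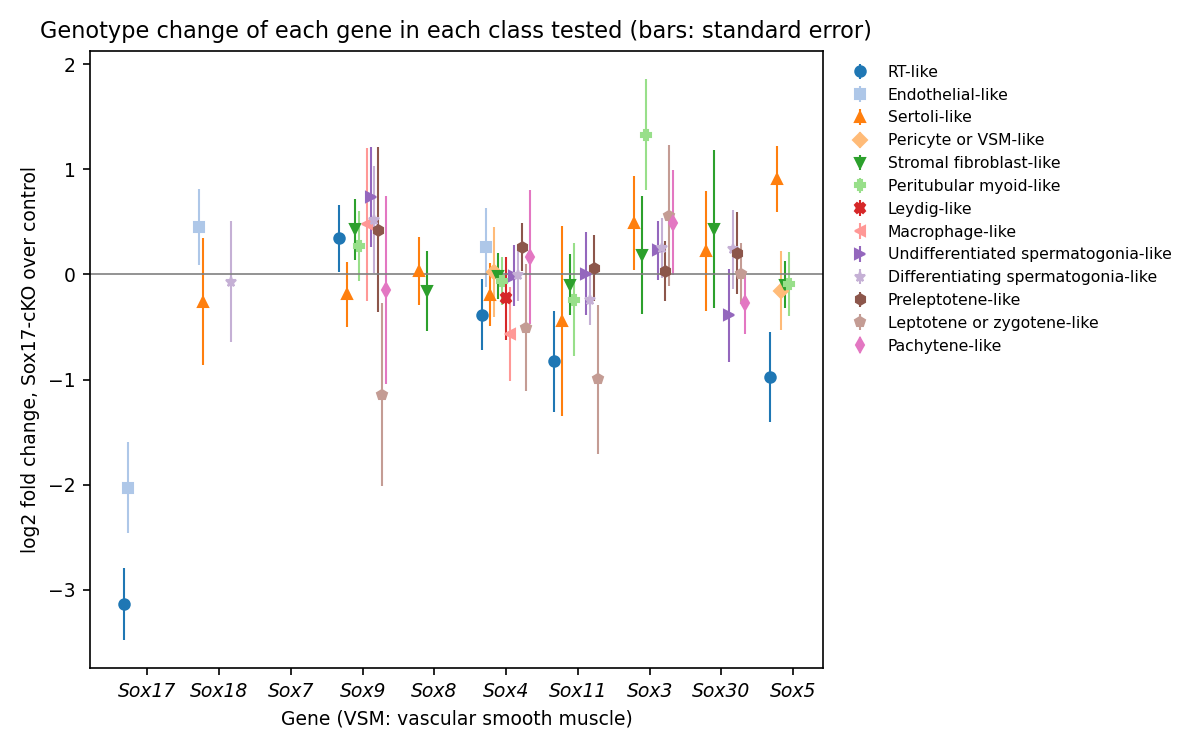
Log2 difference, Sox17-cKO over control, with its SE (bars) for each Sox gene and cell class that could be tested, n = 2 and 2 libraries. Sox17 in RT-like cells at −3.13 is the 1 difference past the threshold, and Sox17 in endothelial-like cells at −2.03 is the next in size.

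Most UMIs of these genes lay in barcodes that the upper limit of 4500 detected genes left out. Of all UMIs in the tables, 55.9% were in such barcodes, but 82.4% of Sox17, 79.3% of Sox7, 76.9% of Sox18 and 76.8% of Sox3 UMIs, and 42.8% of Sox5 UMIs. With no upper limit and all cells clustered and named again, 493 cells were RT-like and 143 endothelial-like. Sox17 was then 256 and 273 CPM in control and 31.8 and 29.4 CPM in Sox17-cKO RT-like cells (−3.13, SE 0.27, edgeR adjusted p = 0.00234), and Sox7, now testable, 88.9 and 53.7 CPM in control and 72.9 and 88.8 CPM in Sox17-cKO endothelial-like cells, which overlapped (0.30, SE 0.38, adjusted p = 1.0). In RT-like cells Sox5 was 55.6 and 55.7 CPM in the controls and 15.2 and 30.1 CPM in Sox17-cKO (−1.16, SE 0.31, unadjusted p = 0.00456, edgeR adjusted p = 0.226) and Sox11 was 32.6 and 35.8 CPM and 10.6 and 17.9 CPM (−1.14, SE 0.32, unadjusted p = 0.00572, adjusted p = 0.252). Both differences were thus larger than with the limit and still not called. In the same fit Sox3 went up (2.23, SE 0.72, unadjusted p = 0.0127, edgeR adjusted p = 0.361), with overlapping groups and 78 UMIs. Sox18 went down (−2.18, SE 0.73, unadjusted p = 0.0154, edgeR adjusted p = 0.390), from 49 UMIs. Over all genes 52 of 11786 were called in RT-like cells.

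The genes whose levels ran most like each Sox gene over the 52 sums of 13 classes in 4 libraries were taken from 15124 genes by Pearson's r of log2(CPM + 1). The points share libraries and differ in depth, so r is a description. For Sox17 these were Adgrf5 (r = 0.92), Podxl (0.92) and Gpm6a (0.91), and for Sox18 Mmrn1 (0.90), a lymphatic marker, Robo4 (0.90), a vascular receptor, and Stmn2 (0.89). For Sox9 they were Map3k21 (0.91), Scara5 (0.89) and Plppr4 (0.88), and for Sox8 Stra6 (0.90), the retinol transporter, Ctsl (0.86), itself on the Sertoli list, and Hebp2 (0.85). For Sox4 they were Tanc1 (0.88), Irf2bpl (0.88) and Sh3bp4 (0.85), and for Sox11, with the lowest values, Tmsb10 (0.78), Egln3 (0.77) and Prkag2 (0.75). For Sox3 they were Xlr3a (0.90), Tex19.1 (0.90), which guards the germ line against transposons, and Timm8a2 (0.89), for Sox30 Trim52 (0.92), Fbxo15 (0.91) and Xist (0.90), and for Sox5 Mmp23 (0.86), Rhoq (0.86) and Ston1 (0.86). None of the 10 Sox genes was among these. Sox7 had under 100 UMIs and was not entered.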

How the data were processed

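Single cells of the RT region of P14 testes were measured in 2 control and 2 Sox17-cKO libraries. The authors aligned the reads to mm10 (GRCm38) with Cell Ranger, which uses STAR, per the labels and methods; the file headers give Cell Ranger 6.0.2 for both replicates 1 and 6.1.2 for both replicates 2. The deposited matrices hold raw UMI counts per gene and barcode, with no normalization. Column 3 of each matrix was read as such, and 0 columns of other samples were found.

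Cells with 1000 to 4500 detected genes were kept, as in the study, whereas its cap on mitochondrial UMIs (1%) was dropped, since 212 cells were left under it. Libraries were integrated in Seurat 5.3.0 (2000 variable features without the Sox genes, canonical correlation, 20 components, resolution 0.4). A cluster took the class whose marker list had the highest mean log2 fold over the other clusters, at least 0.8 with 3 markers over 2-fold. A cluster with the leptotene or zygotene list highest but a pachytene list at 1 or more was called pachytene-like. Clusters without such a list (934 cells) stayed unnamed and 17 mesothelial-like cells were too few to test. Doublets were kept in the main result, because Scrublet (Scanpy 1.11.5) called none in 2 libraries. The share left out in an alternative was 0.8% of barcodes per 1000 barcodes.

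UMIs were summed per library and class. Genotypes were compared within each class, and classes in 1 fit with library as a block, by the quasi-likelihood test of edgeR 4.0.16 (R 4.3.3) with TMM normalization, filterByExpr and Benjamini-Hochberg adjustment over all genes tested, two-sided, threshold 0.05. Shares of cells were compared by exact permutation over libraries with exact Clopper-Pearson intervals. The tests were also run on simulated counts with known changes, where no minimum recovery was required of the endothelial-like class. Depth per class sum sets the precision, and a count of 0 allows up to 3 UMIs. The Sox genes, the pathway lists and the markers were chosen with earlier results of these data known, and no test over a list was made. Named were the 10 Sox genes, for each with 100 or more UMIs the 3 genes most like it by r, and at most 4 genes per pathway list and contrast by smallest adjusted p. The pathway lists were other Sox genes, SoxF vascular, SoxE Sertoli, SoxE cartilage, SoxB spermatogonial and SoxH meiotic genes.

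Alternatives were no integration, another order of libraries, resolution 0.8, no upper limit on genes, cells below 10% mitochondrial UMIs, doublets removed, no count filter, DESeq2 1.42.0 size factors and its Wald test, control libraries only, the replicate number as a block, each library left out and other thinning. After the data were seen, the interaction under all these settings, endothelial-like cells without lymphatic markers and cell shares with each library left out were added. The contrast of Sertoli valve cells was not made, since their markers were not used to name clusters.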

Additional observations from a re-analysis of the deposited data

Results flagged for a closer look

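The Sox17 difference between genotypes in RT-like cells minus that in endothelial-like cells was −1.13 on the log2 scale, because the interaction had an unadjusted p of 0.0453 in edgeR, but the adjusted p over 5391 genes was 1.0, and endothelial-like cells held 123 Sox17 UMIs in all. Sox18 gave −3.64 for the same difference (SE 1.45, unadjusted p = 0.0259, edgeR adjusted p = 1.0), from 3 UMIs in RT-like cells, all in control replicate 2.

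Sox5 was lower in both Sox17-cKO libraries in RT-like cells (−0.98) and higher in both in Sertoli-like cells (0.90), a gap of −1.88 on the log2 scale that was not tested as such. Sox30 was lower in both Sox17-cKO libraries in undifferentiated spermatogonia-like cells (−0.39) and higher in both in differentiating spermatogonia-like cells (0.24), a gap of −0.63 that was also not tested. None of these 4 changes was called by edgeR within its class. The groups of 2 libraries were too small to be searched for outlying samples.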

How the results depend on the processing

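The Sox17 difference in RT-like cells kept its direction and passed in all 14 alternatives, with −3.29 to −2.88 when each library was left out and an adjusted p of at most 0.0407. In endothelial-like cells Sox17 stayed lower in every alternative (−2.28 to −1.77 with each library left out) and passed in 3 of 15, namely −2.0 without a count filter (adjusted p = 0.0484), −2.28 without control replicate 2 (0.0173) and −1.99 with the replicate block (0.0438), while the adjusted p of the others reached 0.749. The difference between both classes ranged from −1.32 to −0.87 with each library left out and never passed. The number of calls among the genotype tests of Sox genes was 2 without a count filter and 3 with the replicate block, which added Sox9 in leptotene or zygotene-like cells (−1.12, adjusted p = 0.00280). Without control replicate 1, which leaves 1 control library, Sox9 in preleptotene-like cells differed by 2.61. The labels do not say what a replicate number marks, there are 2 pairs, and same-numbered libraries deviated together (r from 0.32 to 0.76 over 13 classes), as did the Cell Ranger versions. With the control libraries only, 4 Sox genes were called in RT-like over Sertoli-like cells and 2, 2 and 3 at the first 3 germ cell steps. Without the upper limit on genes 3, 3 and 4 were called at the first, at the third and at the last step. At the last, 2 were called with the Sox17-cKO libraries first and without a count filter. With each library left out the counts were 4 to 6 for RT-like over Sertoli-like cells, where Sox17-cKO replicate 2 gave the lowest, 3 to 5 at the first step, where control replicate 1 gave the lowest, and 4 to 5 at the second. The share of endothelial-like cells with a Sox17 UMI changed by −12.2 percentage points in the main result and by −28.8 to 4.49 with each library left out, turning without control replicate 1. For RT-like cells it was −34.1 to −25.0. Differences that were not called turned direction with 1 library left out, ranging over such fits from −0.082 to 0.66 for Sox9 in RT-like cells, −0.47 to 0.030 for Sox9, −0.40 to 0.35 for Sox8 and −0.54 to 0.071 for Sox4 in Sertoli-like cells, −0.70 to 0.11 for Sox4 in RT-like cells, −0.19 to 0.17 for Sox4 in undifferentiated and −0.13 to 0.55 for Sox3 in differentiating spermatogonia-like cells, −0.33 to 0.10 for Sox5 in pericyte-like cells and −0.079 to 0.12 for Sox30 in leptotene or zygotene-like cells. Other settings turned Sox8 in Sertoli-like cells with the replicate block (−0.0048), Sox4 in undifferentiated spermatogonia-like cells with the Sox17-cKO libraries first (0.0032) and Sox30 in leptotene or zygotene-like cells with those first (−0.10), at resolution 0.8 (−0.051), without the upper limit (−0.11) and with doublets removed (−0.14). Between classes, 2 differences turned without the upper limit, Sox30 from differentiating spermatogonia-like to preleptotene-like cells (−0.057) and Sox9 from there to leptotene or zygotene-like cells (−0.059). The causes were not tested. Without integration no leptotene or zygotene class formed, so its comparisons could not be made. Depth limits Sox7 and Sox18 in RT-like cells and every gene in the 8 endothelial-like cells of control replicate 1.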

Other observations

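Of 10 other Sox genes, 3 passed the count filter of the comparison of classes, and they ran in patterns of their own. Sox13, a SoxD gene like Sox5, was highest in endothelial-like cells (60.3 CPM) and undifferentiated spermatogonia-like cells (46.3 CPM). It was 1.87 higher on the log2 scale in endothelial-like than in RT-like cells (SE 0.52, edgeR adjusted p = 0.00514) and fell by 3.62 from undifferentiated to differentiating spermatogonia-like cells (SE 0.26, adjusted p = 8.45e-16). Sox6, also SoxD, had its highest mean in RT-like cells (40.5 CPM), had no UMI in endothelial-like cells, and rose by 2.85 from preleptotene-like to leptotene or zygotene-like cells (SE 0.34, adjusted p = 3.95e-09) and by 0.92 on to pachytene-like cells (SE 0.24, adjusted p = 0.00148). Sox12, the third SoxC gene, had its highest means in Sertoli-like (68.5 CPM) and RT-like cells (62.0 CPM), which did not differ past the threshold (−0.32, SE 0.25, adjusted p = 0.291), and fell by 1.51 from differentiating spermatogonia-like to preleptotene-like cells (SE 0.22, adjusted p = 1.62e-07). None of these genes was called by genotype in any class by edgeR, and none had an unadjusted p below 0.05. Sry, which switches on Sox9 in the fetal testis, gave 1 UMI in all kept cells, and Sox2 and Sox14 gave 19 and 14.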
